A study of Arabidopsis thaliana with 27 samples.

Results

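Nuclear genes for the light-harvesting antenna and the photosystems were followed on 27 Affymetrix ATH1 arrays of Arabidopsis thaliana leaves. The members were probe sets (groups of short oligonucleotides that report 1 transcript) assigned to 1 gene. All were taken whose capitalised symbol in the platform annotation marks a light-harvesting protein (LHCA or LHCB with a number) or a photosystem subunit. Photosystem symbols were PSA or PSB with 1 letter and an optional number. This rule found 6 probe sets for 6 genes among 22746 probe sets, of which 13513 carried 1 gene name. They were PSAN (AT5G64040) of photosystem I, PSBW (AT2G30570) and PSBY (AT1G67740) of photosystem II, and LHCB4.1 (AT5G01530), LHCB4.2 (AT3G08940) and LHCB4.3 (AT2G40100) of the antenna. No LHCA gene was among them, so the antenna is represented here by the LHCB4 family alone. The rule used symbols and no measured value, but it was chosen with earlier results of these data known.

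The plants were Columbia wild type (Col-0) and gpa1-4/agb1-2, which lacks a functional Galpha and Gbeta subunit of the G protein complex and is here called the mutant. Both were raised for 4 to 5 weeks in days of 9 h light and 15 h dark. They were then moved to 4 chambers at 24 degrees C and given clean air (5 ppb ozone) or an ozone level of 125 ppb, each day for 7 h. Mid-whorl leaves were taken after 3 h (3 arrays in each of 4 groups) or after 2 d (4 arrays for wild type in clean air, for wild type in ozone and for the mutant in ozone, and 3 for the mutant in clean air). The labels call the replicates biological, but they do not say how many plants an array stands for or which chamber held them. Chamber and treatment therefore cannot be told apart, and the p-values measure the spread between these arrays. The 2 subunit genes GPA1 and AGB1 had 0 named probe sets and are not analysed here.

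Photosystem II splits water and photosystem I reduces ferredoxin, and both draw excitation energy from chlorophyll proteins of the light-harvesting family. Their core subunits are made in the plastid, while the antenna proteins and many small subunits are encoded in the nucleus and imported. Transcripts of such nuclear genes are among the most abundant in green leaves and are known to respond to light, the circadian clock and stress signals from the plastid.

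Values are log2(intensity + 1), and a change is a difference of group means on that scale with its standard error (SE) from limma. A probe set passed when its p-value, adjusted by Benjamini-Hochberg over all 22746 probe sets, was under 0.05. Array medians lay between 153.5 and 182 intensity units, or 7.27 to 7.52 as log2 values. They were thus not equal. Changes with quantile normalization are given below only for PSBW, LHCB4.1 and the mutant median at 2 d. Other values may have differed too. Pearson correlations between replicates, across probe sets, were 0.916 to 0.965. The member probe sets were bright: their mean levels stood between the 96.9th percentile (LHCB4.3) and the 99.9th percentile (LHCB4.1) of all probe sets. As a check of the labelled leaf tissue, RCA, the activase of the carbon-fixing enzyme rubisco, had group means of 14.01 to 14.67. Of 10 markers of other leaf cell types and root, 2 had a named probe set, FAMA of guard cells and PYK10 of roots. Their summed intensity lay between 138.2 and 347.9 on the 2 d arrays and between 155.4 and 412.5 on the 3 h arrays.

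After 2 d in ozone all 6 genes had group means below those of clean air in both genotypes. Averaged over the genotypes, PSAN, PSBY and PSBW fell past the threshold, so that 3 of 6 members fell and 0 rose, where 5.25% of all probe sets fell and 5.51% rose. The change was −0.78 ± 0.191 for PSAN, −0.51 ± 0.15 for PSBY and −0.34 ± 0.108 for PSBW (SE), with adjusted p in limma of 0.0119, 0.0315 and 0.0457. As ratios, ozone levels were 0.582, 0.701 and 0.789 of those in clean air. The 3 LHCB4 genes did not pass, at −0.83 ± 0.335 for LHCB4.2, −0.56 ± 0.207 for LHCB4.3 and −0.35 ± 0.131 for LHCB4.1, with adjusted p of 0.118, 0.0843 and 0.0933. The median member change was −0.54 beside −0.06 over all probe sets, and 6 of 6 members were below 0, as were 56% of all probe sets. At an unadjusted p under 0.05 the count was 6 of 6, against 25.4% of all probe sets. The average uses the same arrays as the values within each genotype that follow, which are therefore no separate evidence. In whole leaves, fewer cells of a type and less RNA per cell cannot be told apart.

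**Figure D1:**
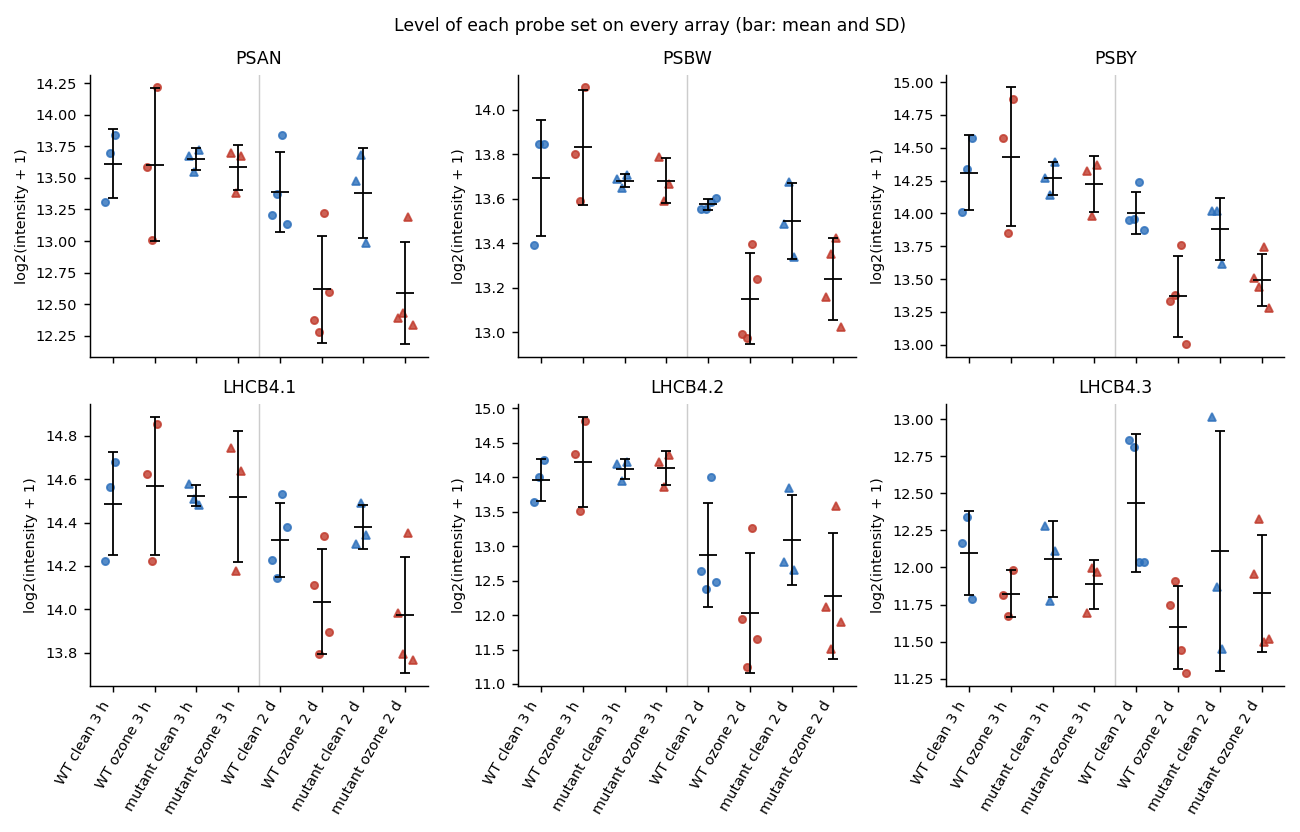
Level of each of the 6 probe sets, as log2(intensity + 1), on every array of the 8 groups (circles wild type, triangles mutant, blue clean air, red ozone), with the mean and SD of each group as a black bar. The 2 d ozone groups are the lowest for every gene but LHCB4.3, whose mutant group in ozone at 2 d (11.82) lies close to both ozone groups at 3 h (11.82 and 11.89); each panel has its own vertical range, which does not start at 0.

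PSAN encodes a subunit of photosystem I on the lumen side of the thylakoid, where plastocyanin delivers electrons. In wild type at 2 d its levels were 13.21, 13.37, 13.84 and 13.13 in clean air and 12.38, 12.28, 13.22 and 12.60 in ozone (replicates 1 to 4). In the mutant they were 13.47, 13.68 and 12.99 in clean air and 12.39, 12.43, 13.19 and 12.34 in ozone. In each genotype 3 of 4 ozone arrays lay below every clean-air array, and the ozone replicate 3 overlapped with clean air. The group means were 13.39 ± 0.318 and 12.62 ± 0.423 in wild type (SD, n = 4 each), and 13.38 ± 0.358 (n = 3) and 12.59 ± 0.403 (n = 4) in the mutant. Wild type thus changed by −0.77 ± 0.259 and the mutant by −0.79 ± 0.28 (SE), with adjusted p in limma of 0.0957 and 0.226, so it passed in neither genotype alone. Averaged over the genotypes it passed whichever of the 15 arrays of 2 d was left out, with adjusted p between 0.00477 and 0.0388.

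PSBY encodes a precursor of small membrane proteins of photosystem II. In wild type at 2 d its levels were 13.95, 13.96, 14.24 and 13.87 in clean air and 13.33, 13.38, 13.76 and 13.01 in ozone, without overlap. In the mutant they were 14.02, 14.02 and 13.61 in clean air and 13.51, 13.44, 13.75 and 13.28 in ozone, where the highest ozone array lay above the lowest clean-air array. The wild-type change was −0.64 ± 0.204 and the mutant change −0.39 ± 0.22 (SE), with adjusted p in limma of 0.0803 and 0.493. Over 7 other ways of processing the mutant change ran from −0.46 to −0.22 and the averaged change from −0.53 to −0.36. The averaged call depended on single arrays. It held without 7 of the 15 arrays and was lost without wild-type clean-air replicate 3 (adjusted p = 0.0597), wild-type ozone replicates 2 (0.0536) and 4 (0.0592), mutant clean-air replicates 1 (0.0858) and 2 (0.0763), and mutant ozone replicates 1 (0.0528), 2 (0.0549) and 4 (0.0609).

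PSBW encodes a small subunit that stabilises the assembly of photosystem II with its antenna. Its wild-type levels at 2 d were nearly the same on the 4 clean-air arrays, at 13.55, 13.55, 13.59 and 13.60, and lay at 12.99, 12.98, 13.40 and 13.24 in ozone. All ozone arrays were lower, and their SD was 0.204 against 0.0252 in clean air. In the mutant the levels were 13.49, 13.68 and 13.34 in clean air and 13.16, 13.35, 13.43 and 13.02 in ozone, with overlap. Ozone minus clean air was −0.42 ± 0.147 for wild type and −0.26 ± 0.159 for the mutant (SE), with adjusted p in limma of 0.105 and 0.542. The averaged call, close to the threshold, held only without wild-type ozone replicate 3 or 4, mutant clean-air replicate 3 or mutant ozone replicate 3. Without 1 of the other 11 arrays its adjusted p lay between 0.055 and 0.122. It was also lost with quantile normalization, where the change was −0.21 and adjusted p was 0.174.

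The LHCB4 genes encode CP29, a monomeric antenna protein that links the light-harvesting trimers to the core of photosystem II. LHCB4.1 changed least of the 3 in wild type: its levels at 2 d were 14.23, 14.14, 14.53 and 14.38 in clean air and 14.11, 13.79, 14.34 and 13.90 in ozone. In the mutant they were 14.30, 14.49 and 14.34 in clean air and 13.98, 13.79, 14.35 and 13.77 in ozone. Clean-air and ozone arrays overlapped in both genotypes. The changes were −0.29 ± 0.178 and −0.41 ± 0.192 (SE), with adjusted p in limma of 0.378 and 0.394. With quantile normalization they were −0.10 and −0.11, and the averaged change was −0.10 in place of −0.35. Without mutant ozone replicate 3 the averaged change passed, at −0.41 with adjusted p = 0.0436 in limma.

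LHCB4.2 varied most between arrays. Its wild-type levels at 2 d were 12.64, 12.38, 14.00 and 12.47 in clean air and 11.95, 11.25, 13.26 and 11.65 in ozone. In the mutant they were 12.77, 13.84 and 12.65 in clean air and 12.12, 11.50, 13.59 and 11.91 in ozone. In each of the 4 groups 1 array stood 1.07 to 1.47 above the next: replicate 3 in both wild-type groups and in mutant ozone, and replicate 2 in mutant clean air. The other 3 ozone arrays lay below every clean-air array in each genotype. The changes were −0.85 ± 0.455 in wild type and −0.81 ± 0.491 in the mutant (SE), with adjusted p in limma of 0.300 and 0.539. The averaged change passed without wild-type ozone replicate 3, at −1.03 and adjusted p = 0.0436, and without mutant ozone replicate 3, at −1.05 and adjusted p = 0.0313. Over the arrays left out in turn the wild-type change ran from −1.26 to −0.47 and the mutant change from −1.25 to −0.43.

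LHCB4.3 encodes a shorter CP29-type protein. Its levels in wild type at 2 d were 12.86, 12.81, 12.04 and 12.03 in clean air and 11.74, 11.91, 11.44 and 11.29 in ozone, without overlap. In the mutant they were 13.02, 11.87 and 11.45 in clean air and 11.95, 12.33, 11.50 and 11.52 in ozone, and the groups overlapped widely. Wild type changed by −0.84 ± 0.281 and the mutant by −0.29 ± 0.304 (SE), with adjusted p in limma of 0.0940 and 0.775. The mutant value turned to 0.16 without mutant clean-air replicate 1. The averaged change was −0.34 without that array, and without mutant clean-air replicate 3 it passed at −0.73 with adjusted p = 0.0259.

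Within a genotype, 0 of 6 members passed at 2 d in limma, while 3.45% of all probe sets passed in wild type and 0.189% in the mutant. At an unadjusted p under 0.05, 4 of 6 members were lower in wild type (PSAN, PSBW, PSBY and LHCB4.3) and 2 of 6 in the mutant (PSAN and LHCB4.1), where 20.8% and 12.3% of all probe sets had such a p in either direction. In wild type the arrays of clean air and ozone did not overlap for 3 of 6 members (PSBW, PSBY and LHCB4.3), all lower in ozone, and 7.93% of all probe sets were lower without overlap. In the mutant this held for 0 of 6, against 4.5% of all probe sets. All 6 changes were below 0 in each genotype, as were 58.1% and 50.9% of all probe sets. Their median was −0.70 for wild type and −0.40 for the mutant, beside −0.09 and −0.01 over all probe sets. With quantile normalization the mutant median was −0.22.

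**Figure D2:**
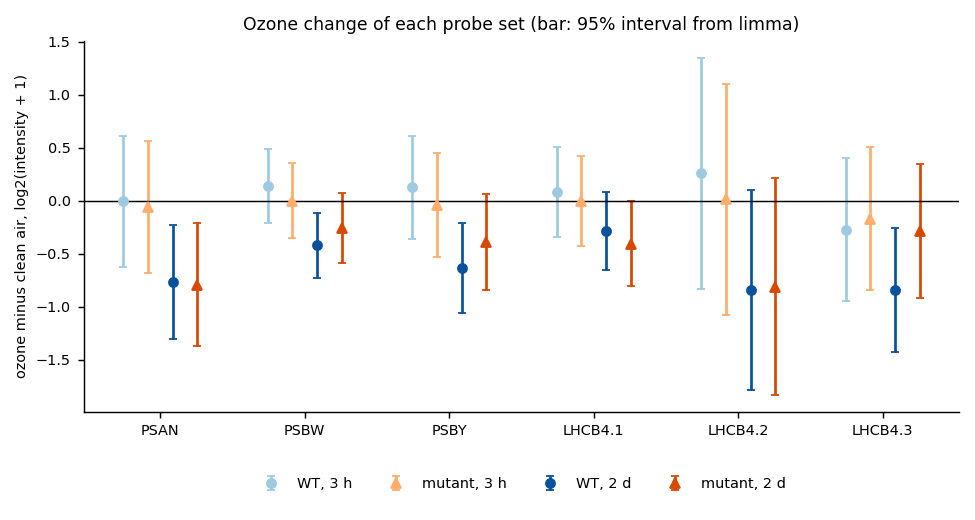
Ozone minus clean air on the log2(intensity + 1) scale for each of the 6 probe sets, in wild type (circles) and mutant (triangles), at 3 h (light) and 2 d (dark), with the 95% interval from limma as a bar. All 12 changes at 2 d are below 0, from −0.85 to −0.26, while those at 3 h lie between −0.27 and 0.26 with every interval across 0.

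After 3 h in ozone none of the 6 members had passed in either genotype. Changes ran from −0.27 (LHCB4.3) to 0.26 (LHCB4.2) in wild type and from −0.17 (LHCB4.3) to 0.01 (LHCB4.2) in the mutant. The smallest adjusted p in limma was 0.763 and 0.921. At an unadjusted p under 0.05 the count was again 0 of 6 in both genotypes, where 15.4% and 10.2% of all probe sets had such a p. With adjustment 1.5% of all probe sets passed in wild type and 0.651% in the mutant. Averaged over genotypes 0 of 6 passed (6.19% of all probe sets), and the changes lay between −0.22 ± 0.23 for LHCB4.3 and 0.14 ± 0.371 for LHCB4.2 (SE). The averaged 95% interval for PSAN was −0.47 to 0.40 at 3 h and −1.18 to −0.39 at 2 d, so the 2 intervals overlapped.

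The arrays of 3 h overlapped for 6 of 6 members in both genotypes, while 18.2% of all probe sets in wild type and 17.2% in the mutant were free of overlap in either direction. PSAN, for example, lay between 13.31 and 13.84 in wild-type clean air and between 13.01 and 14.22 in wild-type ozone, and between 13.55 and 13.72 and between 13.38 and 13.70 in the mutant. PSBY lay between 14.01 and 14.58 and between 13.85 and 14.87 in wild type. In the wild-type ozone group replicate 3 was the highest and replicate 2 the lowest array for 6 of 6 members.

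The ozone change at 2 d was below that at 3 h for 6 of 6 members, by −0.34 to −0.96 on the log2 scale when averaged over genotypes, and for 55.4% of all probe sets. The difference between the times itself did not pass for any member, with 0 of 6 called where 7.4% of all probe sets were called. It was largest in LHCB4.2, at −0.96 ± 0.5, and had its smallest adjusted p in PSAN, at −0.75 ± 0.285 with adjusted p = 0.117 in limma. At an unadjusted p under 0.05 it stood at 3 of 6 (PSAN, PSBW and PSBY), against 21.7% of all probe sets. PSBY passed when wild-type ozone replicate 2 of 3 h was left out, at −0.70 and adjusted p = 0.0373. Over 6 other ways of processing the difference ran from −0.47 to −0.06 for LHCB4.1 and from −0.64 to −0.33 for PSBY.

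Between the times in clean air, 0 of 6 members passed in wild type (9.99% of all probe sets) and 0 of 6 in the mutant (5.61%). LHCB4.2 was 1.09 ± 0.491 lower at 2 d than at 3 h in wild type and 1.03 ± 0.525 lower in the mutant (SE), with adjusted p of 0.177 and 0.324 in limma. The other 5 members differed by −0.30 to 0.34 in wild type and by −0.38 to 0.06 in the mutant. LHCB4.3 was at 0.34 ± 0.304 in wild type and 0.06 ± 0.325 in the mutant. The wild-type value was 0.18 without clean-air replicate 3 of 3 h, 0.20 without replicate 1 of 2 d and 0.21 without replicate 2 of 2 d. The mutant value had no settled sign, from −0.40 without clean-air replicate 1 of 2 d to 0.39 without replicate 3 of 2 d. The hour of day at which leaves were taken is not given in the labels. Time of exposure and time of day therefore cannot be told apart, here or where ozone changes are compared between the times.

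Ranked by level, the 8 groups fell into a similar order for 5 of the members. For PSAN the 4 groups of 3 h were highest, at 13.58 to 13.65, followed by clean air at 2 d in wild type and mutant (13.39 and 13.38) and by ozone at 2 d (12.62 and 12.59). The step of 0.76 between clean air and ozone at 2 d was the only gap between neighbours larger than the pooled SD of 0.366. PSBW, PSBY and LHCB4.1 also had a single such gap, of 0.26, 0.39 and 0.29 between clean air and ozone at 2 d. For LHCB4.2 the single gap, of 0.87, lay between the groups of 3 h and those of 2 d. LHCB4.3 had its highest mean in wild-type clean air at 2 d (12.44) and its lowest in wild-type ozone at 2 d (11.60), with 0 gaps beyond its pooled SD of 0.401.

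No difference between mutant and wild type passed in limma for any of the 6 members, in clean air or ozone at either time. Of all probe sets 0.0132% passed in clean air and 0.0176% in ozone at 3 h, and 0.0132% and 0.00879% at 2 d. At an unadjusted p under 0.05 the count of members was also 0 of 6 in each, where 3.8% and 5.59% of all probe sets at 3 h and 2.69% and 3.46% at 2 d had such a p. Mutant minus wild type ran from −0.04 to 0.16 in clean air at 3 h, from −0.21 to 0.06 in ozone at 3 h, from −0.32 to 0.22 in clean air at 2 d and from −0.06 to 0.25 in ozone at 2 d. The genotype by ozone interaction at 2 d was largest for LHCB4.3, at 0.55 ± 0.414 (SE) with an unadjusted p of 0.196 in limma. It was 1.004 without mutant clean-air replicate 1 and 0.22 without mutant clean-air replicate 3. The interaction passed for 0% of all probe sets at either time, and 0 of 6 members had an unadjusted p under 0.05, against 2.76% of all probe sets at 3 h and 2.84% at 2 d. For PSAN it was −0.03 ± 0.382. Over the 6 members the 95% intervals of this interaction reached from −1.35 to 1.43, so the number of arrays limits what difference between the genotypes could be seen.

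Within the groups, 5 of the 6 members moved together from array to array. Over the 27 arrays Pearson correlations among PSAN, PSBW, PSBY, LHCB4.1 and LHCB4.2 were 0.85 to 0.93 for the 10 pairs, and 0.63 to 0.89 after group means were taken off. LHCB4.3 correlated with the others at −0.02 to 0.28 and, after group means were taken off, at −0.32 to 0.13. These values are descriptive, since the points share arrays and their scaling. At 2 d replicate 3 was the highest array for 5 of 6 members in wild-type ozone, 5 of 6 in mutant ozone and 4 of 6 in wild-type clean air, and in mutant clean air replicate 2 was highest for 4 of 6. LHCB4.3 was highest in replicate 1 or 2 of each of these groups.

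**Figure D3:**
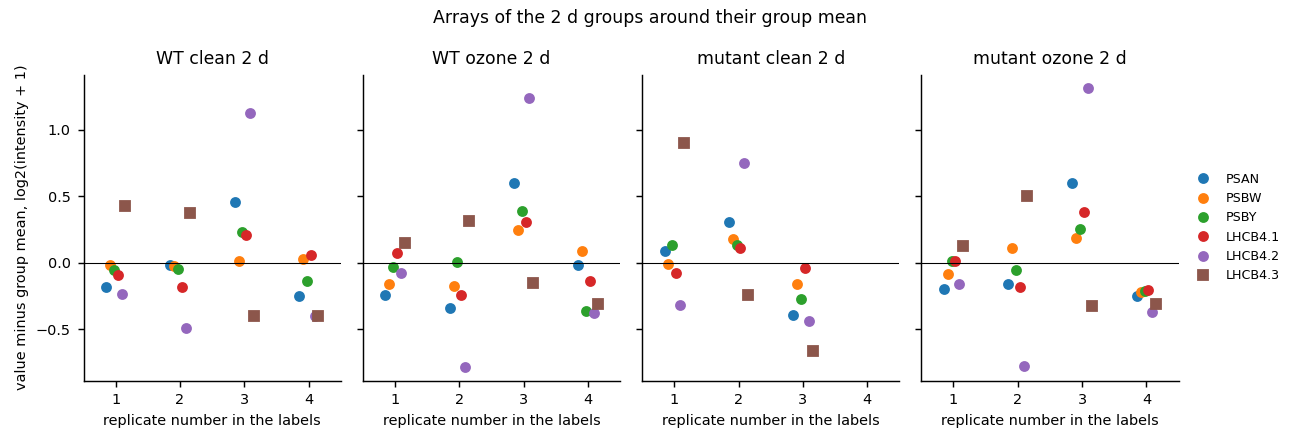
Value of each probe set on each 2 d array minus its group mean, on the log2(intensity + 1) scale, against the replicate number in the labels, 1 panel per group. LHCB4.2 (purple) stands highest in replicate 3 of 3 groups and in replicate 2 of the mutant in clean air, and on each of these arrays LHCB4.3 (squares) stands below its mean.

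Other genes of photosynthesis were sparsely named in the platform annotation used here. Of 48 nuclear genes listed for the photosystems and their antenna, 8 had a named probe set, the 6 members and 2 more. The symbols of these 2 in the platform annotation did not match the naming rule, so they were not counted as members. Their names here, PSB27 and PSAE1, are those of the list. PSB27, an assembly factor of photosystem II, stood at −0.59 ± 0.203 and PSAE1, a photosystem I subunit at the ferredoxin side, at −0.30 ± 0.133 at 2 d in ozone, averaged over genotypes (SE). Neither passed in limma, with adjusted p of 0.0673 and 0.161. In the same contrast 10.8% of all probe sets passed in either direction. Of 3 measured Calvin cycle genes 0 passed, with a median of −0.35 and SBPASE, a phosphatase of that cycle, at −0.42 ± 0.137 (adjusted p = 0.0535). Of 2 measured genes for thylakoid electron transport and ATP synthesis 0 passed, with ATPC1, the gamma subunit of the chloroplast ATP synthase, at −0.29 ± 0.109 and PGRL1B at 0.01 ± 0.196.

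At 2 d in ozone, averaged over genotypes, 5.25% of all probe sets fell past the threshold and 5.51% rose. Of 2 measured genes for proteins related to the antenna, both of the LIL3 type that takes part in chlorophyll synthesis, 1 fell: LIL3.2 at −0.46 ± 0.141 (SE) with adjusted p = 0.0391 in limma, while LIL3.1 was at −0.52 ± 0.201 with adjusted p = 0.0984. Of 2 measured genes for chlorophyll breakdown and leaf senescence, NOL, a chlorophyll b reductase, fell by 0.61 ± 0.14 (adjusted p = 0.00829) and WRKY53, a transcription factor of senescence, rose by 1.66 ± 0.357 (adjusted p = 0.00591). WRKY53 had already risen at 3 h, by 2.59 ± 0.396 (adjusted p = 0.000415). The 1 measured clock gene, GI, had a later ozone change 1.22 ± 0.337 above the earlier one (adjusted p = 0.0305), from −0.74 ± 0.251 at 3 h to 0.48 ± 0.226 at 2 d, neither of which passed alone. FAMA and PYK10, the 2 measured markers of other cells, stood at −0.12 ± 0.173 and 0.05 ± 0.411 in ozone at 2 d. Both were weak there, with group means of 7.05 to 7.40 for FAMA and 5.02 to 5.46 for PYK10, which limits what their changes can show. Their part in the falls of the photosystem genes was not tested. No gene of the lists for antenna insertion and thylakoid kinases or for regulators of photosynthesis genes had a named probe set.

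**Figure D4:**
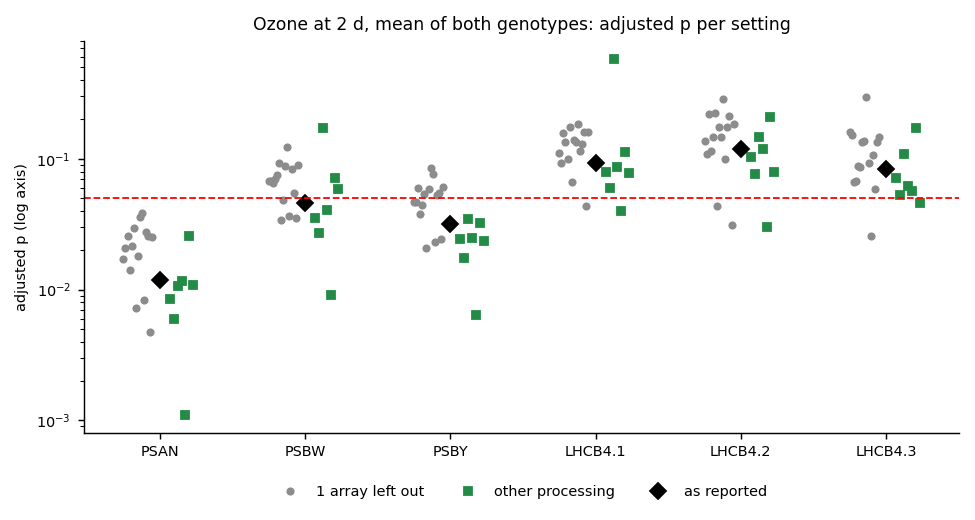
Adjusted p (log axis) of the 2 d ozone change averaged over genotypes for each of the 6 probe sets, as reported (black diamonds), with each of 15 arrays left out in turn (grey circles) and under 7 other ways of processing (green squares); the dashed line marks 0.05. PSAN stays under the line throughout, while the points of every other gene, the LHCB4 genes included, lie on both sides of it.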

How the data were processed

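The deposited table holds 1 linear intensity per probe set and array, with values from 0 to 39907.3 and 0 missing. Per the submitters' processing notes the tools were Affymetrix Expression Console and RMA, with no version. RMA usually writes log2 values, while these are linear, and the steps of background correction and scaling stay unknown here. Trimmed means of the arrays, with 2% of values cut at each end, were nearly equal, at 495.9 to 496.8. The arrays thus appear scaled to a common trimmed mean, though the method is not known here. The deposited intensity values were taken to log2(intensity + 1) without further normalization or filter, and the 27 arrays and 22746 probe sets entered 1 fit of 8 group means in limma 3.58.1 in R 4.3.3, after a test on simulated data. There were 15 contrasts, 2-sided, each adjusted by Benjamini-Hochberg over all probe sets. Probe sets bear the names of the platform annotation, and locus numbers come from the gene table of assembly TAIR10.1. Of 22746 probe sets 503 had several genes and 8730 were not listed, so they are unnamed here. All 6 members are described, with members of the 9 gene lists that passed and otherwise up to 2 with the largest change. The members, the lists and the naming rule were chosen with earlier results of these data known. A planned search of promoters for motifs was not run, since promoter sequences were not used here. For arrays, 3 or 4 replicates per group limit the precision. Bright probe sets may be compressed near the top of the range, which was not tested.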

Additional observations from a re-analysis of the deposited data

Results flagged for a closer look

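In the 18 groups of 4 arrays examined, 6 genes in each of 3 groups at 2 d, 2 held an array farther from the rest than Dixon's 95% critical value of 0.829 allows. Chance flags about 1 in 20 such groups. LHCB4.2 in wild-type clean air at 2 d was 14.0 in replicate 3 and between 12.38 and 12.64 on the other 3 arrays, a gap of 0.841 of the range. PSAN in mutant ozone at 2 d was 13.19 in replicate 3 and between 12.34 and 12.43 on the other 3 arrays, a gap of 0.892 of the range.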

How the results depend on the processing

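For the 2 d ozone change averaged over genotypes, the count of members past the threshold was 1 to 5 over the 15 arrays left out in turn and 5 with array weights, against 3 as reported. PSAN passed in each of these runs and in the 7 other ways of processing, PSBY in these 7, and PSBW was lost with quantile normalization (adjusted p = 0.174), separate fits per time point (0.0714) and the replicate block (0.0585). LHCB4.1, LHCB4.2 and LHCB4.3 each passed in 1 of these 7, with adjusted p in limma of 0.0398, 0.0299 and 0.0461. For wild type at 2 d the count of 0 became 1 with low values left out, 4 with array weights and 2 with the replicate block (PSBY and LHCB4.3). With array weights it became 1 for the mutant at 2 d (PSAN), 3 for the difference between the times and 1 for clean air at 2 d against 3 h in wild type. The difference between the times had 0 to 1 calls over the arrays left out. The cause of these shifts was not tested. Pseudocount 16 and centred arrays moved none of the 15 counts. Median member changes moved by less than the SD between arrays (0.308) in all 248 comparisons, a wide yardstick: the mutant median at 2 d was −0.40 as reported and −0.22 with quantile normalization. Their sign changed in 27 comparisons, all for ozone at 3 h or for genotype. Among single members the sign changed in 125 of 1488 comparisons, each for a value called in neither run. Same-numbered arrays of different groups deviated from their group means with correlations of −0.09 to 0.28, over 0.1 in 16 of 39 pairs. The median was 0.07, beside −0.04 for arrays with different numbers, and 15 of 27 arrays correlated best with their own number. Whether a number marks shared handling was not tested. The labels state no pairing, so the block is given as an alternative. At 2 d replicate 2 of mutant clean air correlated with replicate 3 of the other groups at 0.24, 0.14 and 0.15, and replicate 3 with their replicate 4 at 0.25, 0.24 and 0.18, but with their own numbers at −0.09 to 0.00. The numbering of that group is therefore in doubt, and so are the tally of pairs and the block values that use it. With the block LHCB4.2 in wild type at 2 d was −0.85 ± 0.372 (adjusted p = 0.179). All 6 members had mean levels above 6, the log2 floor of the run with low values left out. Limits from background or from compression were not tested. The promoter search was not run.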

Other observations

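Among 4953 named probe sets with a mean level of at least 8, the 5 whose values followed the median of the 6 members most closely over the 27 arrays were AT5G65840, AT5G42070, AT1G77090, AT1G51400 and AT1G22850, at Pearson correlations of 0.95, 0.94, 0.94, 0.93 and 0.93. The median correlation of all these probe sets was −0.09, and 14.2% of them lay above 0.5. The arrays share their scaling and groups. The choice used the arrays of ozone at 2 d, so the changes are given as values with no test. At 2 d in ozone, averaged over genotypes, AT1G77090 was at −0.87 ± 0.189, AT5G42070 at −0.72 ± 0.249, AT1G22850 at −0.67 ± 0.153, AT5G65840 at −0.57 ± 0.18 and AT1G51400 at −0.51 ± 0.329 (SE). At 3 h the 5 changes lay between −0.34 and 0.03 in wild type and between −0.20 and 0.02 in the mutant.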
